A study of Caenorhabditis elegans with 16 samples.

Results

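The transcripts of 10 glycolytic enzymes were followed in worms whose body wall muscle was driven into repeated contraction by light. The genes are pfk-1.1, aldo-1, aldo-2, tpi-1, gpd-2, gpd-3, pgk-1, enol-1, pyk-1 and pyk-2, which act between phosphofructokinase and pyruvate kinase. The set is not the whole of that stretch. It leaves out the phosphoglycerate mutase gene ipgm-1 and further genes of its own steps, pfk-1.2, gpd-1 and gpd-4, which were read separately. They were chosen by gene symbol, each symbol matched 1 of the 46904 genes in the count table, and all 10 passed the filter on low counts. Whole-worm poly(A) RNA of Caenorhabditis elegans was sequenced in 4 conditions with 4 libraries each. All worms came from strain PP3189, which carries a channelrhodopsin-2 variant, ChR2(C128S;H134R), under the body wall muscle promoter myo-3p. The channel needs the cofactor all-trans retinal (ATR) to open in light. In the light plus ATR condition, worms were raised on 0.1 mM ATR from the L1 stage and as young adults received 5 s pulses of 455 nm light, each followed by 20 min of darkness, over 8 h. Light minus ATR worms received the same light without the cofactor, dark plus ATR worms received the cofactor without light, and dark minus ATR worms received neither. Temperature was 18 °C throughout. The study's methods describe the libraries of a condition as biological replicates, and worms whose vulva ruptured were washed out before RNA was taken, so the light plus ATR libraries hold the worms that stayed intact.

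Glycolysis splits glucose into pyruvate and yields ATP without oxygen, which is why contracting muscle relies on it. Phosphofructokinase and pyruvate kinase catalyse steps that are irreversible in the cell, whereas aldolase, triosephosphate isomerase, glyceraldehyde-3-phosphate dehydrogenase (GAPDH), phosphoglycerate kinase and enolase also run in reverse during gluconeogenesis. Worms use gluconeogenesis to make sugar from stored fat. The genes are expressed in many tissues, and in RNA from whole worms fewer cells of a type and less RNA per cell cannot be told apart.

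The libraries held 21266999 to 25416073 estimated gene counts in light plus ATR, 19859400 to 29379938 in light minus ATR, 25804736 to 32374032 in dark plus ATR and 19264325 to 28704269 in dark minus ATR. ERCC spike-in RNA made up 0.721% to 0.953% of gene and spike-in counts together. Levels are given as CPM (counts scaled to library size) after scaling by the trimmed mean of M-values (TMM). Fold changes are on the log2 scale with standard errors (SE), and p-values come from edgeR's quasi-likelihood F test, adjusted by Benjamini-Hochberg over 15044 genes with a threshold of 0.05. Marker genes moved with the conditions as well. Between light plus ATR worms and light minus ATR worms, 6 of 10 body wall muscle markers, 5 of 8 pharyngeal muscle markers and 4 of 10 neuron markers were higher and none of these was lower, while 3 of 9 intestine markers were lower and 1 was higher. The summed level of the body wall muscle markers was 6595 to 6886 CPM in light plus ATR, against 5295 to 6370 CPM in light minus ATR. Of the remaining lists, 1 of 10 hypodermis markers was lower, 1 of 10 sperm markers was higher, and none of 12 germline and oocyte markers was called. Of all genes tested, 8.39% were higher and 7.9% were lower in this comparison. Against dark plus ATR and against dark minus ATR all 10 sperm markers were higher, and 6 and 7 of the germline and oocyte markers were lower. In the same order, 16.2% and 20.4% of all genes were higher and 11.6% and 16.5% were lower. Lower levels were called for 25.5% and 35.7% of the 3427 genes with a mean of at least 63.7 CPM. The part of these marker changes in the results on glycolysis was not tested.

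Light plus ATR worms had lower levels of 7 of the 10 enzymes than light minus ATR worms, and no enzyme was higher, while 8.39% of all genes were. The decrease was 31.8% for gpd-2 and 25.3% for gpd-3, and it lay between 14.8% and 15.9% for pfk-1.1, tpi-1, pgk-1, enol-1 and pyk-1. Lower levels were called for 7.9% of all genes tested in this comparison, and for 16.3% of the 3427 genes whose mean level was at least that of the lowest enzyme (63.7 CPM). The median log2 fold change was -0.24 over the 10 enzymes, 0.01 over all genes and -0.06 over those 3427 genes. The enzymes and the gene lists were chosen with earlier results of these data known. Background shares, here and below, are therefore given for scale and do not test the counts set beside them. The calls of gpd-2 and gpd-3 are also not independent, because these genes share an operon and the split of their reads is uncertain.

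**Figure D1:**
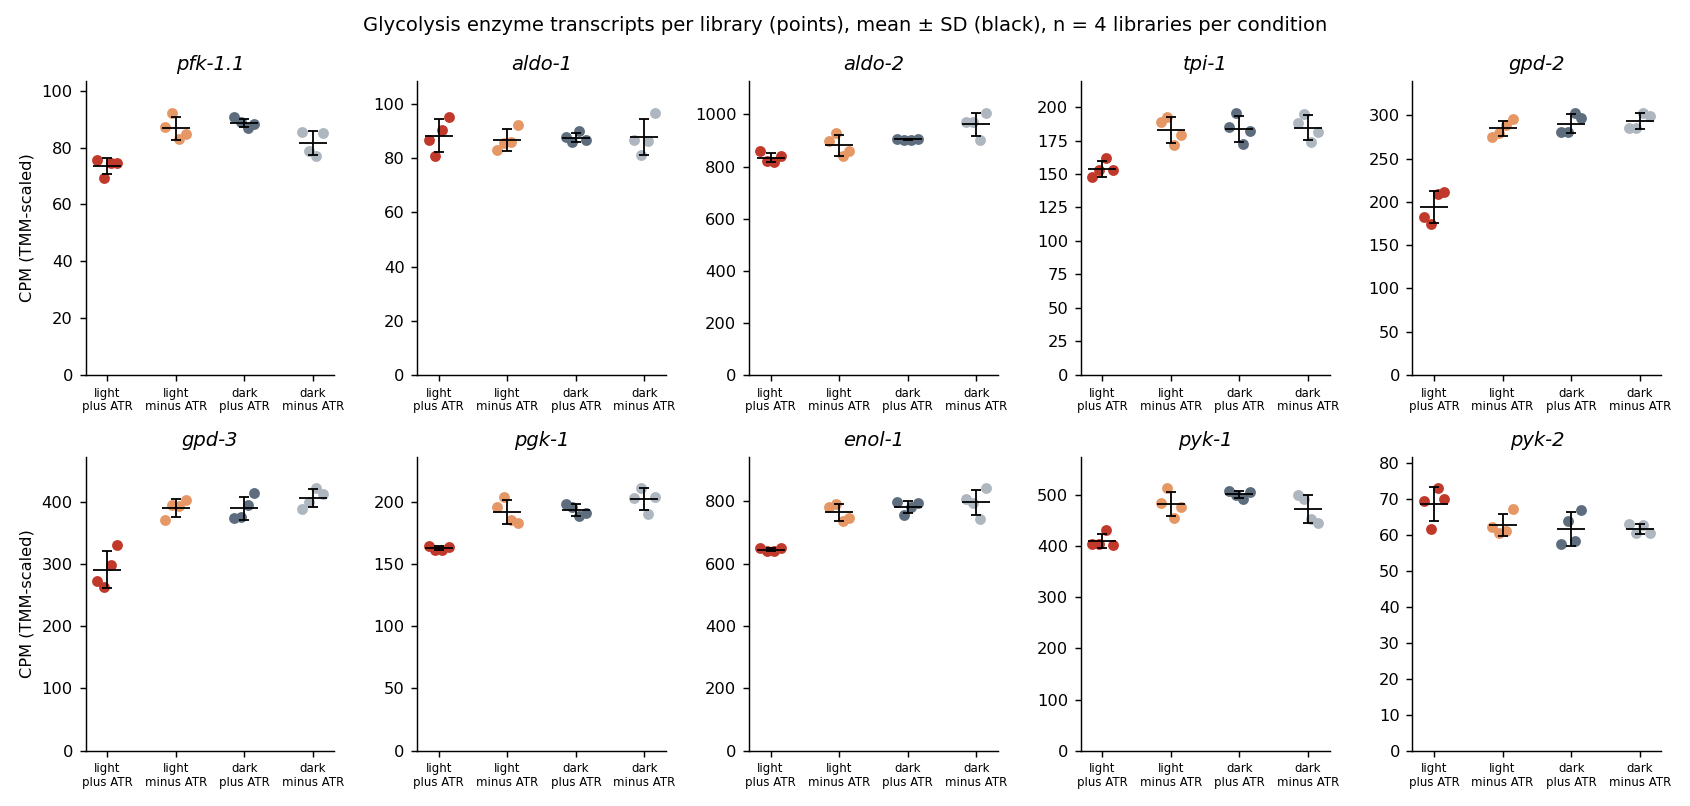
Level of each enzyme transcript in CPM (vertical axes, from 0) in the 16 libraries (points), by condition, with the mean and SD of the 4 libraries in black. The light plus ATR points of gpd-2 lie between 174 and 211 CPM, below all 12 control points (275 to 303 CPM), whereas those of aldo-1, aldo-2 and pyk-2 overlap the controls.

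pfk-1.1 (WBGene00022199) encodes phosphofructokinase, which commits sugar to glycolysis by adding a phosphate group to fructose 6-phosphate. The gene lies on chromosome X at 2940872 to 2945485 on the plus strand (WBcel235). Its level was 75.8, 69.2, 74.5 and 74.4 CPM in light plus ATR, against 87.2, 92.3, 83.1 and 84.6 CPM in light minus ATR. The dark plus ATR libraries had 90.6, 88.9, 86.8 and 88.3 CPM and the dark minus ATR libraries had 85.3, 78.9, 77.0 and 85.03 CPM. All 4 light plus ATR libraries lay below the 12 controls, and the closest control was a dark minus ATR library. The log2 fold change was -0.24 (SE 0.04, adjusted p = 4.29e-04) against light minus ATR, -0.27 against dark plus ATR and -0.15 (adjusted p = 0.0093) against dark minus ATR. pfk-1.2, a further phosphofructokinase gene, was far less abundant, with 5.60 ± 0.69 CPM in light plus ATR, against 3.97 ± 0.91 CPM in light minus ATR (± SD over 4 libraries). Its fold change was 0.50 on the log2 scale (adjusted p = 0.0522) against light minus ATR, and it was higher by 0.81 against dark plus ATR and by 1.09 against dark minus ATR, comparisons in which the sperm markers were also higher. Against dark minus ATR, pfk-1.2 was also at 0.59 in light minus ATR and at 0.28 in dark plus ATR, neither called. The sperm markers had a median of 0.52 in light minus ATR against dark minus ATR, with 0 called.

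aldo-1 (WBGene00011474) and aldo-2 (WBGene00017166) encode aldolases, which split fructose 1,6-bisphosphate into a pair of triose phosphates. Both are on the minus strand of chromosome III, aldo-1 at 13563346 to 13564937 and aldo-2 at 5874673 to 5876625. aldo-1 had 86.6, 80.8, 90.4 and 95.2 CPM in light plus ATR, against 82.8, 85.7, 86.1 and 92.1 CPM in light minus ATR. Its dark plus ATR libraries lay between 85.8 and 89.9 CPM and its dark minus ATR libraries between 81.2 and 96.8 CPM, so all conditions overlapped. The log2 fold change of aldo-1 was 0.03 (SE 0.05, adjusted p = 0.759) against light minus ATR. aldo-2 had 859, 821, 819 and 839 CPM in light plus ATR, against 899, 930, 840 and 859 CPM in light minus ATR. It had 906, 901, 903 and 906 CPM in dark plus ATR and 971, 971, 902 and 1007 CPM in dark minus ATR. The light plus ATR libraries of aldo-2 overlapped those of light minus ATR and lay below both dark conditions. Its log2 fold change was -0.08 (SE 0.04, adjusted p = 0.227) against light minus ATR, -0.12 (adjusted p = 0.0562) against dark plus ATR and -0.21 (adjusted p = 0.00113) against dark minus ATR. The call of aldo-2 against dark plus ATR was made when light plus ATR replicate 1 (-0.14), light minus ATR replicate 3 or dark minus ATR replicate 3 or 4 (-0.12 each) was left out, as well as by DESeq2 (-0.13, adjusted p = 0.0075) and with only the compared groups in the fit (-0.11, edgeR adjusted p = 0.0309). Exons of aldo-2 overlap F01F1.3 on the other strand, which had 4.42 to 6.68 CPM over the 16 libraries.

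tpi-1 (WBGene00006601) encodes triosephosphate isomerase, which interconverts the products of aldolase. It lies on the minus strand of chromosome II at 12036835 to 12039139. Its level was 148, 153, 162 and 153 CPM in light plus ATR, against 189, 193, 172 and 179 CPM in light minus ATR. The dark plus ATR libraries had 185, 196, 172 and 182 CPM and the dark minus ATR libraries had 188, 195, 174 and 182 CPM. The light plus ATR libraries were below all controls, and the 3 control conditions covered nearly the same range. Its fold change was -0.25 on the log2 scale (SE 0.05, adjusted p = 8.04e-04) against light minus ATR, and -0.26 against each dark condition.

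gpd-2 (WBGene00001684) and gpd-3 (WBGene00001685) encode GAPDH, the enzyme of the single oxidative step of the pathway. They are neighbours on the minus strand of chromosome X, gpd-2 at 3113443 to 3114689 and gpd-3 at 3112091 to 3113341, and are transcribed with mai-1, a mitochondrial ATPase inhibitor homologue, as an operon. gpd-2 had 183, 174, 209 and 211 CPM in light plus ATR, against 275, 280, 288 and 295 CPM in light minus ATR. The level was 281, 281, 302 and 298 CPM in dark plus ATR and 285, 285, 303 and 299 CPM in dark minus ATR. Every light plus ATR library was well below every control, with a gap between 211 and 275 CPM. gpd-3 had 273, 264, 298 and 331 CPM in light plus ATR, against 370, 394, 393 and 403 CPM in light minus ATR. It had 374, 377, 395 and 414 CPM in dark plus ATR and 389, 401, 422 and 413 CPM in dark minus ATR. Here too the groups did not overlap, and replicates 3 and 4 were the highest light plus ATR libraries for both genes. The log2 fold change of gpd-2 was -0.55 (SE 0.05, adjusted p = 1.16e-07) against light minus ATR, -0.58 against dark plus ATR and -0.59 against dark minus ATR. For gpd-3 it was -0.42 (SE 0.06, adjusted p = 1.52e-05), -0.42 and -0.48 in the same comparisons. gpd-2 and gpd-3 had the largest decreases of the 10 enzymes in each of the 3 comparisons.

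The GAPDH genes gpd-1 to gpd-4 each had fractional counts in 15 of the 16 libraries, so the split of reads between these copies is uncertain. gpd-1 (397 to 531 CPM over the 16 libraries) and gpd-4 (230 to 308 CPM) were not called against light minus ATR. With gpd-2 and gpd-3 counted together, the log2 fold change was -0.48 (SE 0.06, adjusted p = 2.27e-06) against light minus ATR. With all 4 copies counted together it was -0.29 (SE 0.04, adjusted p = 8.10e-05). Both sums were formed after the data had been seen. Exons of gpd-2 also overlap mai-1 on the same strand. mai-1 had only 4.44 to 7.49 CPM, with a log2 fold change of -0.24 (adjusted p = 0.186) against light minus ATR, -0.33 (adjusted p = 0.0419) against dark plus ATR and -0.43 (adjusted p = 0.00693) against dark minus ATR.

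pgk-1 (WBGene00020185) encodes phosphoglycerate kinase, which makes ATP from the product of GAPDH. It lies on the plus strand of chromosome I at 3867541 to 3869109. Its level was 165, 161, 161 and 164 CPM in light plus ATR, against 196, 204, 186 and 183 CPM in light minus ATR. The dark plus ATR libraries had 199, 196, 189 and 191 CPM and the dark minus ATR libraries had 203, 211, 190 and 204 CPM. The 4 light plus ATR libraries were close together and below every control. pgk-1 had a log2 fold change of -0.24 (SE 0.04, adjusted p = 2.28e-04) against light minus ATR, -0.25 against dark plus ATR and -0.31 against dark minus ATR.

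enol-1 (WBGene00011884) encodes enolase, which forms phosphoenolpyruvate. It lies on the plus strand of chromosome II at 8930997 to 8933799. Its level was 649.6, 641.6, 642.2 and 649.2 CPM in light plus ATR, against 784, 791, 738 and 747 CPM in light minus ATR. The dark plus ATR libraries had 798, 757, 782 and 796 CPM and the dark minus ATR libraries had 808, 795, 744.5 and 842 CPM. The light plus ATR libraries again lay together below all controls. enol-1 had a log2 fold change of -0.24 (SE 0.04, adjusted p = 3.26e-04) against light minus ATR, -0.28 against dark plus ATR and -0.30 against dark minus ATR.

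pyk-1 (WBGene00009126) and pyk-2 (WBGene00014001) encode pyruvate kinases, which transfer the last phosphate to ADP. pyk-1 lies on chromosome I at 9168432 to 9177488 and pyk-2 on chromosome IV at 10909913 to 10913078, both on the plus strand. pyk-1 had 404.6, 404.5, 432 and 403 CPM in light plus ATR, against 484, 514, 455 and 477.5 CPM in light minus ATR. It had 508, 499.9, 493 and 506 CPM in dark plus ATR and 501, 494, 453 and 446 CPM in dark minus ATR. All light plus ATR libraries were below all controls, with replicate 3 the closest to them. The log2 fold change was -0.23 (SE 0.05, adjusted p = 0.00123) against light minus ATR, -0.29 against dark plus ATR and -0.20 (adjusted p = 0.0019) against dark minus ATR. pyk-2 had 69.45, 61.8, 73.0 and 69.98 CPM in light plus ATR, against 62.1, 60.7, 61.1 and 67.2 CPM in light minus ATR. Its level was 57.4, 63.99, 58.3 and 67.0 CPM in dark plus ATR and 63.1, 60.6, 62.8 and 60.6 CPM in dark minus ATR. For pyk-2, 3 light plus ATR libraries were above all controls and replicate 2 lay among them. Its log2 fold change was 0.13 (SE 0.05, adjusted p = 0.106) against light minus ATR, 0.15 (adjusted p = 0.0347) against dark plus ATR and 0.15 (adjusted p = 0.0314) against dark minus ATR. The higher call of pyk-2 against dark plus ATR ended without light plus ATR replicate 1, 3 or 4 or dark plus ATR replicate 1 or 3 (0.12 to 0.14). Against dark minus ATR it ended without light plus ATR replicate 1, 3 or 4 or dark minus ATR replicate 2, 3 or 4 (0.12 to 0.15). Exons of pyk-2 overlap the antisense RNA gene ZK593.11, which had 0 counts in every library.

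**Figure D2:**
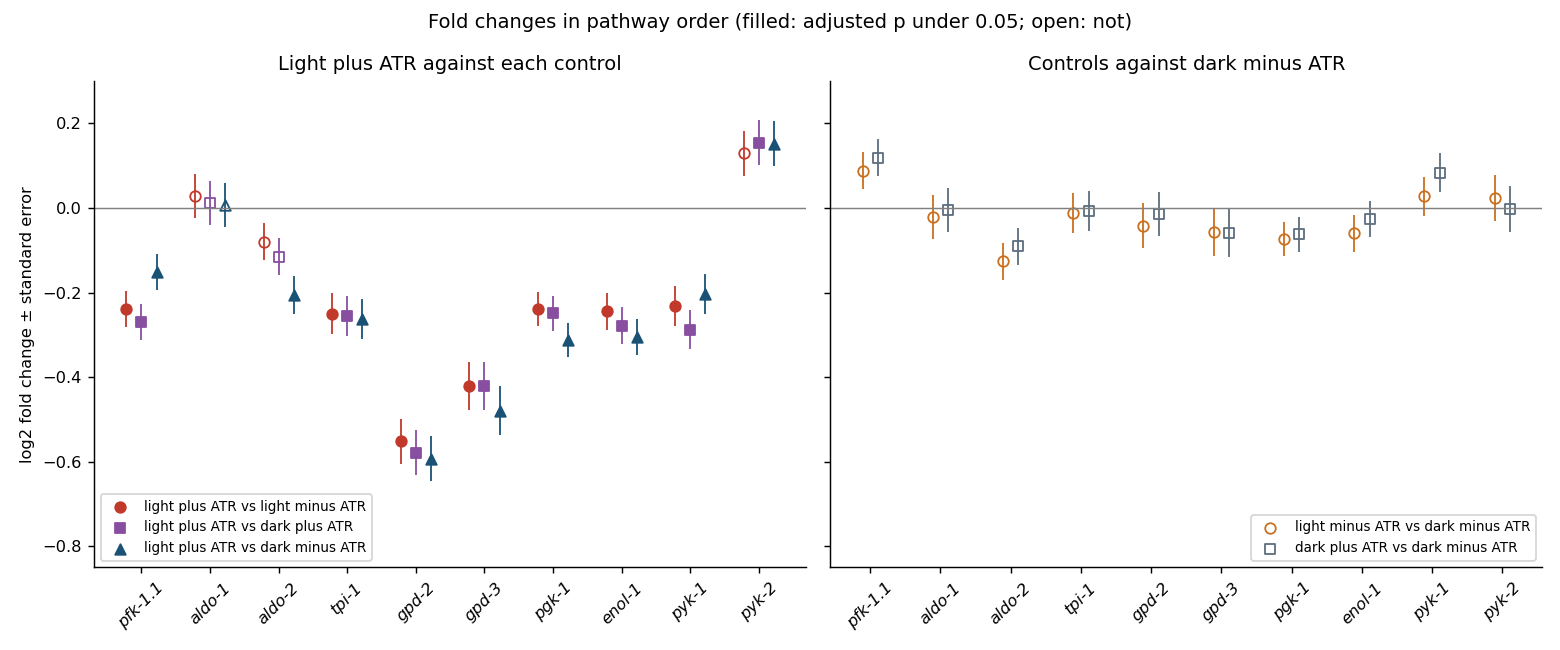
Log2 fold changes (vertical axis) with their SE for the 10 enzymes in pathway order. Left, light plus ATR against each control condition; right, light minus ATR and dark plus ATR against dark minus ATR. Filled symbols have an adjusted p under 0.05. gpd-2 is lowest at -0.55 to -0.59, aldo-1 lies near 0 and pyk-2 lies above 0, and no symbol on the right is filled.

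The 3 comparisons share the light plus ATR libraries, so they are not independent of each other. Against dark plus ATR, 7 enzymes were lower (background 11.6% of all genes) and 1, pyk-2, was higher (background 16.2%). Against dark minus ATR, 8 enzymes were lower (background 16.5%), with aldo-2 as the additional gene, and pyk-2 was higher (background 20.4%). Among the 3427 genes at least as abundant as pyk-2, lower levels were called for 25.5% against dark plus ATR and 35.7% against dark minus ATR. The 4 light plus ATR libraries lay below all 12 controls for 7 enzymes, a pattern seen for 6.29% of all genes and 13.7% of the 3427 abundant genes. Summed over the 10 enzymes, the level was 2924 ± 69.3 CPM in light plus ATR, 3416 ± 100.7 CPM in light minus ATR, 3485 ± 38.2 CPM in dark plus ATR and 3551 ± 95.6 CPM in dark minus ATR (SD, n = 4 each). The highest light plus ATR sum was 2990 CPM and the lowest control sum was 3303 CPM.

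Light or ATR alone was examined next. Light minus ATR against dark minus ATR gave 0 enzymes and 0% of all genes past the threshold in edgeR. At an unadjusted p under 0.05 there were 2012 of the 15044 genes and 1 enzyme, aldo-2, whose log2 difference was -0.13 (edgeR adjusted p = 0.225). DESeq2 called 177 genes and 1 enzyme, again aldo-2 (-0.13, DESeq2 adjusted p = 0.0483). Dark plus ATR against dark minus ATR gave 0 enzymes and 10 genes (0.0665%) in edgeR. Here 1179 of the 15044 genes and 1 enzyme, pfk-1.1 (0.12, edgeR adjusted p = 0.576), had an unadjusted p under 0.05. DESeq2 called 0 enzymes and 23 genes there. The interaction compared the effect of light with ATR to its effect without ATR. It was negative and past the threshold for 6 enzymes (background 2.65% of all genes and 4.49% of the 3427 abundant genes): gpd-2 at -0.54 (SE 0.07, adjusted p = 4.54e-05), gpd-3 and pfk-1.1 at -0.36, pyk-1 at -0.32, tpi-1 at -0.24 and enol-1 at -0.22. The interaction of pgk-1 was -0.18 (adjusted p = 0.0838) and was called by DESeq2 (adjusted p = 0.0322). Those of tpi-1 and enol-1 passed narrowly, each with an adjusted p of 0.037 in edgeR. The call of tpi-1 ended without replicate 1 or 2 of light plus ATR, light minus ATR or dark plus ATR, or without dark minus ATR replicate 3 (-0.21 to -0.24). The call of enol-1 ended without light plus ATR replicate 1, 2 or 3, light minus ATR replicate 1 or 2, dark plus ATR replicate 1, 3 or 4, or dark minus ATR replicate 2 or 3 (-0.19 to -0.22).

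The calls depended on how libraries were scaled. With ERCC spike-ins in place of TMM, only gpd-2 (-0.51) and gpd-3 (-0.38) stayed past the threshold against light minus ATR. pfk-1.1, tpi-1, pgk-1, enol-1 and pyk-1 had log2 fold changes of -0.19 to -0.21 with a median SE over the 10 enzymes of 0.09, against 0.05 under TMM. Against dark plus ATR, 7 enzymes were lower under spike-in scaling, as were 635 of the 15044 genes. Against dark minus ATR, spike-in scaling moved the median of all genes to 0.16. There 2 enzymes were lower and pyk-2 was higher, while 396 genes were lower and 3841 were higher. Relative to that median 8 of the 10 enzymes lay below. By library totals alone, 7 enzymes were lower against light minus ATR and pyk-2 was higher (0.20, adjusted p = 0.0144 in edgeR). Over all genes, the calls against light minus ATR were 1262 higher and 1188 lower under TMM, 2057 and 598 by library totals, and 935 and 399 by spike-ins. The call of pfk-1.1 against dark minus ATR ended by library totals too (-0.06). In the interaction, tpi-1 and enol-1 were no longer called by library totals, enol-1 was not called without the filter on low counts (-0.21, adjusted p = 0.078 in edgeR), and under spike-in scaling tpi-1, enol-1 and pyk-1 were not. The higher call of pyk-2 also ended under spike-in scaling against dark plus ATR (0.15), by DESeq2 against dark minus ATR (0.14), and in both with only the compared groups in the fit. All 10 enzymes kept the sign of their fold change under the 3 scalings in the 3 comparisons, although pfk-1.1 was at -7.1e-04 against dark minus ATR under spike-in scaling.

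**Figure D3:**
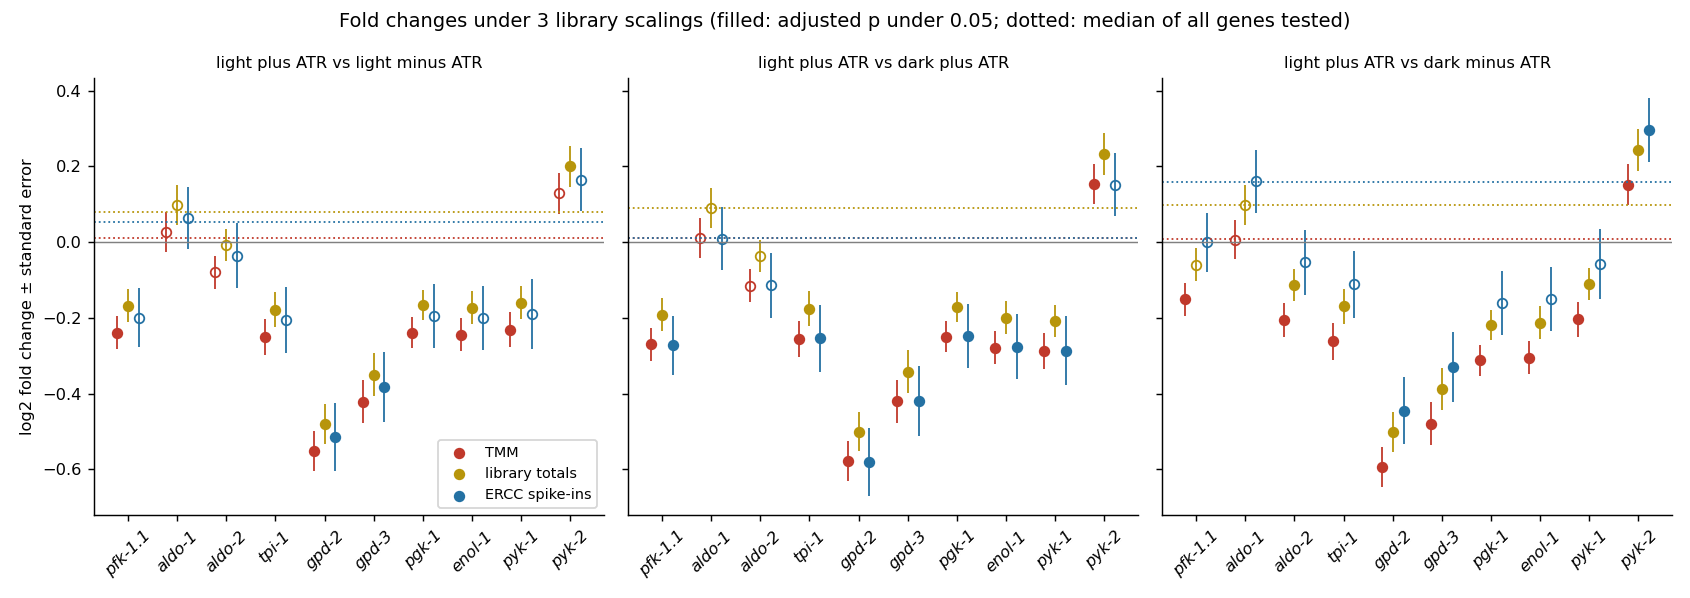
Log2 fold changes with SE (vertical axis) of the 10 enzymes under TMM, library totals and ERCC spike-ins, in 3 panels for light plus ATR against each control condition. Filled points have an adjusted p under 0.05 and dotted lines mark the median of all genes tested. gpd-2 and gpd-3 are filled under every scaling, and in the left panel they are the only filled spike-in points.

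Ratios between isoenzymes of 1 step do not depend on library scaling. The log2 ratio of pyk-1 over pyk-2 was 2.54, 2.71, 2.56 and 2.53 in light plus ATR, against 2.96, 3.08, 2.90 and 2.83 in light minus ATR. It was 2.92 to 3.14 in dark plus ATR and 2.85 to 3.03 in dark minus ATR, so light plus ATR did not overlap any control. The difference was -0.36 against light minus ATR (two-sided exact permutation p = 0.0286, adjusted over the 3 isoenzyme pairs 0.0429), the smallest p that 4 against 4 libraries allow. Against the 12 controls it was -0.38 (exact permutation p = 5.49e-04, adjusted 8.24e-04). That permutation treats the 3 control conditions as exchangeable. Taken singly, the difference was -0.44 against dark plus ATR and -0.35 against dark minus ATR (exact permutation p = 0.0286 each). The gpd-2 over gpd-3 ratio was -0.58, -0.60, -0.51 and -0.65 in light plus ATR, against -0.43, -0.49, -0.45 and -0.45 in light minus ATR. Its difference was -0.13 (exact permutation p = 0.0286, adjusted 0.0429), with no overlap, for a pair of genes whose shared reads were split by estimation. The aldo-1 over aldo-2 ratio averaged -3.24 ± 0.10 in light plus ATR, against -3.35 ± 0.11 in light minus ATR (± SD over 4 libraries). That difference was 0.10 (exact permutation p = 0.2) and the groups overlapped.

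**Figure D4:**
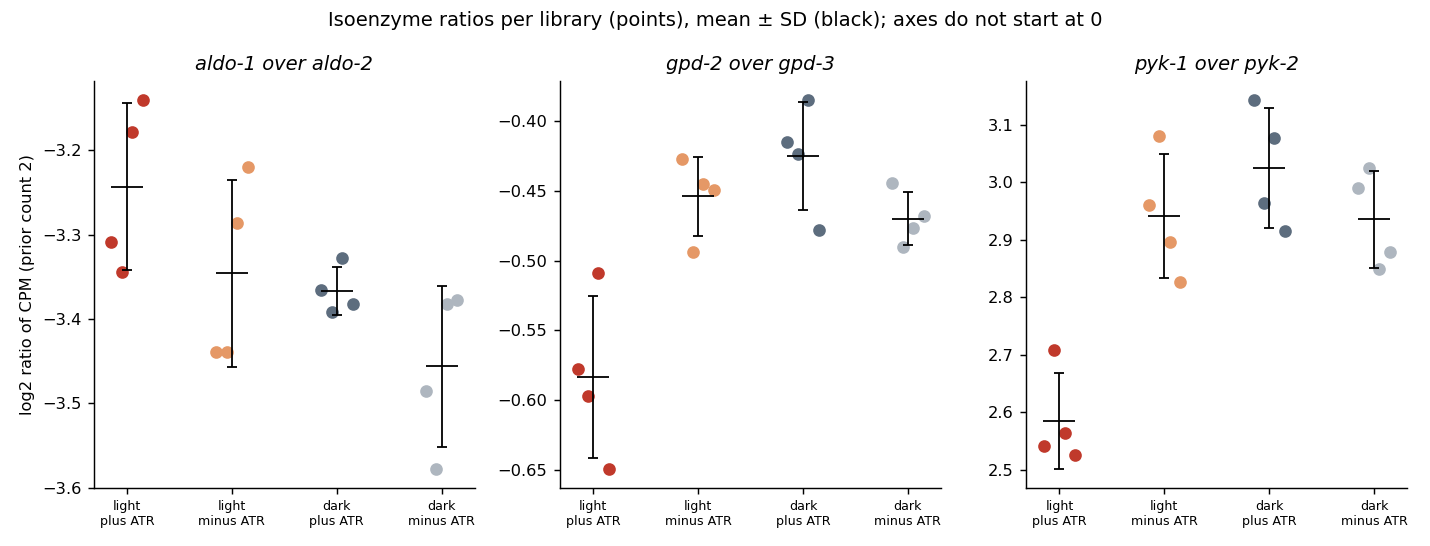
Log2 ratio of CPM (vertical axes, not starting at 0) for the aldolase, GAPDH and pyruvate kinase pairs in the 16 libraries (points), by condition, with mean and SD in black. In light plus ATR the pyk-1 over pyk-2 ratio is 2.53 to 2.71, below the control range of 2.83 to 3.14.

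Between genes, levels can be compared only per length of exon sequence. In CPM per kb over all 16 libraries, the order was aldo-2 (659), enol-1 (470), gpd-3 (320), gpd-2 (231), tpi-1 (151), pgk-1 (132), pyk-1 (119), aldo-1 (69.9), pyk-2 (36.9) and pfk-1.1 (23.2). In light minus ATR, pgk-1 (129 to 144 CPM per kb) and pyk-1 (116 to 130 CPM per kb) overlapped, and the other neighbours in the order did not. The lengths cover all annotated exons of a gene, so a gene with many alternative exons has a lower value per kb. In CPM, aldo-2 ranked above 99.0% of the genes tested and pyk-2 above 77.2%.

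Across the 16 libraries, log2 CPM of the 7 enzymes that were lower had Pearson's r between 0.713 and 0.981 in their 21 pairs, with a median of 0.835. After the mean of each condition was subtracted, r ranged between -0.399 and 0.899 with a median of 0.301. These are descriptions. The 7 enzymes were chosen because they were lower in light plus ATR, which by itself raises r across the 16 libraries. All genes of a library also share its depth and scaling.

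The enzymes around the 10 genes were read from lists of other glycolytic, gluconeogenic and neighbouring genes. Between light plus ATR and light minus ATR worms, 7.9% of all genes were lower and 8.39% were higher. Of the 3427 abundant genes, 16.3% were lower. Of 10 other glycolysis enzymes, 2 were lower in light plus ATR worms compared with light minus ATR, and 0 were higher, with a median log2 fold change of -0.07. That count of lower genes is near the share of the abundant genes. The lower genes were gpi-1, glucose-6-phosphate isomerase (-0.18, adjusted p = 0.00805), and ipgm-1, phosphoglycerate mutase (-0.14, adjusted p = 0.0306). Of 5 gluconeogenesis genes, 4 were lower and 0 were higher, with a median of -0.25. pck-1, a phosphoenolpyruvate carboxykinase, had 49.5 ± 7.75 CPM in light plus ATR, against 102 ± 4.03 CPM in light minus ATR (± SD over 4 libraries). Its log2 fold change of -1.04 (SE 0.08, adjusted p = 1.33e-07) was a larger decrease than that of any of the 10 glycolysis enzymes. fbp-1, the fructose bisphosphatase that opposes phosphofructokinase, had 115.2 ± 5.52 CPM in light plus ATR, against 147 ± 4.75 CPM in light minus ATR, a log2 fold change of -0.35 (adjusted p = 2.29e-06). pck-2 (-0.25) and pyc-1, pyruvate carboxylase (-0.19), were also lower, and pck-3 had 0.42 (adjusted p = 0.058).

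For the lists that follow, the background was again 7.9% of all genes lower and 8.39% higher. Of the 3427 abundant genes, 16.3% were lower. Downstream of pyruvate kinase, 5 of 9 genes for pyruvate and lactate metabolism were lower and 0 were higher. They included mpc-1 (-0.40, adjusted p = 3.08e-05) and mpc-2 (-0.22), which form the mitochondrial pyruvate carrier. pdhb-1, a subunit of pyruvate dehydrogenase, was at -0.29 and ldh-1, lactate dehydrogenase, at -0.24 (adjusted p = 0.00187). Of 6 pentose phosphate genes, 3 were lower, among them rpia-1, ribose 5-phosphate isomerase (-0.25, adjusted p = 7.01e-04), and none was higher. Of 14 genes for glycogen, trehalose, glycerol and glucose transport, 2 were higher and 3 were lower. The higher genes were the trehalase gene tre-5 (1.08, adjusted p = 1.81e-04), with only 6.503 ± 1.46 CPM in light plus ATR, against 3.07 ± 0.55 CPM in light minus ATR, and the trehalose phosphate synthase gene tps-1 (0.27, adjusted p = 8.61e-04). The lower genes were tre-2, agl-1, the glycogen debranching enzyme, and gsy-1, glycogen synthase. None of 5 hypoxia pathway genes was called, and hif-1, the hypoxia-inducible factor that can induce glycolytic genes, had a log2 fold change of 0.02 (adjusted p = 0.758). These are transcript levels, and the amount or activity of the HIF-1 protein was not measured.

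**Figure D5:**
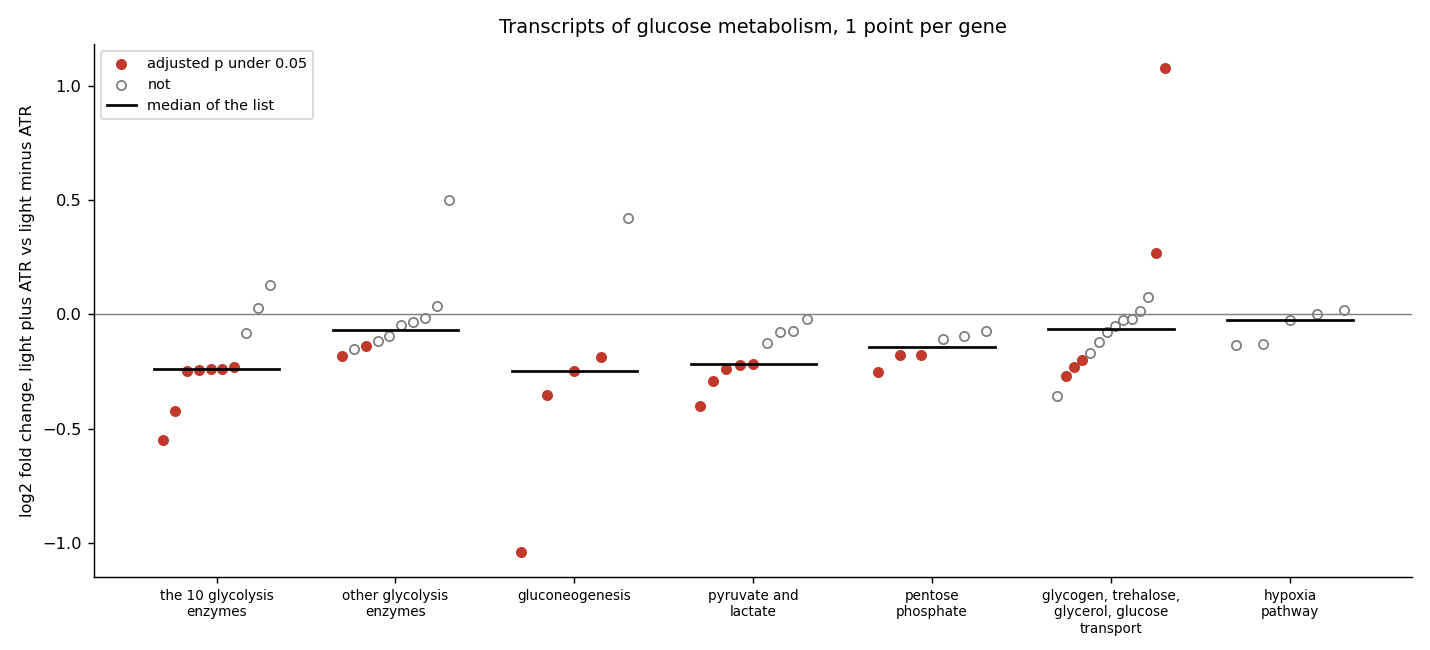
Log2 fold change of light plus ATR over light minus ATR (vertical axis) for each gene (point) in the 10 glycolysis enzymes and 6 neighbouring lists. Filled points have an adjusted p under 0.05 and black lines mark list medians. The lowest point is pck-1 at -1.04, and the medians are -0.24 for the 10 enzymes, -0.07 for the other glycolysis enzymes and -0.25 for gluconeogenesis.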

How the data were processed

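Whole-worm poly(A) RNA-seq of 16 libraries was used. The authors prepared stranded libraries with ERCC spike-ins, quantified reads with salmon in the nf-core pipeline on WBcel235, and deposited estimated counts per gene, which are not normalized. A table named for TPM held the same estimated counts. The submitters' processing notes also name R 4.0.3 and DESeq2 1.30.1. Salmon divides reads between close copies, which affects the GAPDH genes.

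Counts were rounded, filtered with filterByExpr, scaled by TMM and tested in R 4.3.3 with edgeR 4.0.16 (robust quasi-likelihood F test, 1 coefficient per condition over all 16 libraries, Benjamini-Hochberg over 15044 genes, threshold 0.05). Log2 CPM used a prior count of 2. Differences in isoenzyme ratios were assessed with exact permutation tests (two-sided). DESeq2 1.42.0, no filter, library totals, 92 ERCC sequences as scale, compared groups only, a replicate block and leaving out each library were the alternatives. On simulated counts, the edgeR fit called 34 of 100 genes changed by 0.3 on the log2 scale and 51 of 100 changed by 0.6. It also called 5 of 14844 unchanged genes. The changed genes were drawn at random from all genes tested. A gene that was not called is thus not shown to be unchanged. Positions are from Ensembl release 115 (WBcel235), which held all 10 symbols. The enzymes and the gene lists were chosen with earlier results of these data known. All 10 enzymes are named; of each neighbouring list, counts and up to 4 genes by smallest p between light plus ATR and light minus ATR worms. pck-3, gsy-1, gpd-1, gpd-4, F01F1.3, ZK593.11 and mai-1 were singled out once their values were known. The range of depth in each condition is given with the results, and depth limits mainly low genes such as pfk-1.2 and tre-5.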

Additional observations from a re-analysis of the deposited data

Results flagged for a closer look

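The level of pyk-1 in light plus ATR was 403, 404.5, 404.6 and 432 CPM, and the highest library, replicate 3, stood apart from the others (gap to its neighbour over the whole range 0.957, above Dixon's critical value). It was the only such case in 52 groups of 4 libraries examined, where chance gives about 1 in 20. Without this library the decrease of pyk-1 against light minus ATR remained past the edgeR threshold.

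The effect of light differed with and without ATR for 6 enzymes, by the interaction term of the edgeR fit (background 2.65% of all genes lower). The log2 difference was -0.36 for pfk-1.1 (adjusted p = 5.33e-04), -0.24 for tpi-1 (0.037), -0.54 for gpd-2 (4.54e-05), -0.36 for gpd-3 (0.00714), -0.22 for enol-1 (0.037) and -0.32 for pyk-1 (0.00408), the values in brackets being edgeR adjusted p. With 1 library left out at a time, tpi-1 stayed called in 9 of 16 fits and enol-1 in 6.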

How the results depend on the processing

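With ERCC scaling the enzymes called were 2 against light minus ATR, 3 against dark minus ATR and 3 in the interaction. The genes called were 1334, 4237 and 420 in the same order, and 2312 against dark plus ATR. Under ERCC scaling the interaction turned to -0.088 for aldo-1 and -0.10 for aldo-2. For light minus ATR against dark minus ATR, DESeq2 called 1 enzyme and 177 genes, and 4, 2 and 3 genes were called without the filter, by library totals and by ERCC. DESeq2 called 23 genes for dark plus ATR against dark minus ATR. The fold change of aldo-1 against dark minus ATR was -0.0090 by DESeq2 and -0.00857 with only the compared groups. The split of higher and lower calls by library totals was 3378 and 715 against dark plus ATR, 4095 and 908 against dark minus ATR and 589 and 284 in the interaction, against 2431 and 1738, 3068 and 2478, and 388 and 399 under TMM. By ERCC it was 1677 and 635, 3841 and 396, and 124 and 296.

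Leaving out 1 library at a time, 7 to 8 enzymes were called against light minus ATR, 7 to 9 against dark plus ATR, 8 to 9 against dark minus ATR, 0 in the control comparisons and 4 to 6 in the interaction. Genes called were 1619 to 2634 (1619 without light minus ATR replicate 2), 3244 to 4467, 4707 to 5612, 0 to 9 and 5 to 11 in the control comparisons, and 646 to 787 in the interaction. aldo-1 (-0.013 to 0.064 against light minus ATR, -0.034 to 0.043 against dark plus ATR, -0.042 to 0.052 against dark minus ATR, -0.023 to 0.072 in the interaction) and aldo-2 (-0.014 to 0.041 in the interaction) changed sign. The isoenzyme ratio differences were 0.07 to 0.14 for aldolase, -0.15 to -0.11 for GAPDH and -0.40 to -0.31 for pyruvate kinase. The GAPDH and pyruvate kinase differences were each past the threshold in only 4 of 8 fits (exact permutation adjusted p up to 0.0857). Against all 12 controls the aldolase ratio differed by 0.15 (exact permutation p = 0.0148), a test that treats the control conditions as exchangeable. Taken singly, the aldolase difference was 0.10 against light minus ATR (exact permutation p = 0.2) and 0.12 against dark plus ATR (p = 0.0571). It was largest against dark minus ATR, at 0.21 (exact permutation p = 0.0286).

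The labels and methods give replicate numbers no shared batch or culture, and same-numbered deviations correlated at -0.177 to 0.189 in the 5 comparisons, not above 0.1 in every pair of any, so the numbers were not used to pair libraries. As a hint from the data only, 3 of 4 numbers matched best between light minus ATR and dark minus ATR and 1 of 4 between light plus ATR and each control, and gpd-2 was higher in replicates 3 and 4 than in 1 and 2 in all 4 conditions. With a replicate block the enzymes called were 7 of 2791 genes called against light minus ATR, 9 of 4506 against dark plus ATR, 9 of 5822 against dark minus ATR, 0 of 0 and 0 of 9 in the control comparisons, and 7 of 1062 in the interaction. The enzymes gained were aldo-2 against dark plus ATR (-0.12, edgeR adjusted p = 0.0366) and pgk-1 in the interaction (-0.18, edgeR adjusted p = 0.0384). The ratio differences of -0.13 (GAPDH) and -0.36 (pyruvate kinase) had an exact permutation p of 0.125, the smallest that 4 pairs allow. Depth limits pfk-1.2, tre-5 and mai-1 more than the 10 enzymes.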

Other observations

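The genes whose log2 CPM over the 16 libraries most closely followed the mean standardised level of the 10 enzymes, among 5177 candidates, were slc-25A10 (Pearson's r 0.963), ile-2 (0.962), idhb-1 (0.959), F23C8.5 (0.958) and ahcy-1 (0.957). These values are descriptions without a test, and the libraries' shared scaling enters all of them. idhb-1 encodes a subunit of mitochondrial isocitrate dehydrogenase and ahcy-1 an S-adenosylhomocysteine hydrolase. Their log2 fold changes between light plus ATR and light minus ATR worms were -0.28 for idhb-1 and -0.24 for ahcy-1. Both genes were picked for following the enzymes over these same libraries, so the decreases are not a separate result.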
